A study of Mus musculus with 6 samples.

Results

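The stearoyl-CoA desaturase locus of mouse chromosome 19 holds 4 desaturase genes, Scd1, Scd2, Scd3 and Scd4, and the channel gene Pkd2l1, whose annotated span encloses that of Scd3. These 5 of 21779 protein-coding genes are described here by all YBX1 peaks inside their GRCm38 spans and in the interval from the first to the last gene plus 10 kb, bases 44137637 to 44417709. The locus was selected on its number of called peaks, which earlier results of these data had shown to be high, so the number of peaks, their sharing between lists and their folds are a description and were not tested. The interval held 15 peaks, 8 in list 1, 4 in list 2 and 3 in list 3, which merged into 8 of the 8156 regions of the series.

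The 3 lists come from chromatin immunoprecipitation with an antibody to YBX1 followed by sequencing (ChIP-seq). The cells were untreated BaF3, a mouse line derived from pro-B cells, with mutant Jak2 (labelled BaF3 Jak2V617F), and all 6 libraries, 3 immunoprecipitates and 3 inputs numbered 1 to 3, came from cells of this kind. The labels give no control antibody, no cells without YBX1 and no cells with unmutated Jak2, and do not say whether the replicates were separate cultures, so the spread between lists may be technical. Each list holds the peaks called by the authors in 1 immunoprecipitate relative to its equally numbered input, with 67.0 M, 68.3 M and 69.7 M tags kept in the immunoprecipitates and 87.6 M, 70.4 M and 67.0 M in the inputs.

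Stearoyl-CoA desaturases sit in the membrane of the endoplasmic reticulum and place a cis double bond in saturated fatty acids, turning stearate into oleate and palmitate into palmitoleate, which then enter phospholipids, triglycerides and cholesterol esters. Scd1 is the main form in liver and fat, Scd2 is prominent in brain, Scd3 in sebaceous and Harderian glands and Scd4 in heart. Pkd2l1 encodes a polycystin-like cation channel, known from sour-sensing taste cells and from neurons that contact the cerebrospinal fluid. YBX1 is a cold shock domain protein that binds RNA and DNA, and its name comes from the Y-box, an inverted CCAAT sequence of some promoters. Transcript levels of the 5 genes were not analysed here.

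YBX1 peaks lay in 2 of the 5 genes, Pkd2l1 and Scd3, and in none of Scd1, Scd2 and Scd4. The span of Pkd2l1, bases 44147637 to 44248328, held 8 peaks of list 1, 4 of list 2 and 3 of list 3. The span of Scd3, at 44203288 to 44244016, held 4, 3 and 2 of these same peaks. Over all protein-coding genes, 4.05% had a peak of list 1 in their span, 2.31% a peak of list 2 and 2.50% a peak of list 3. Every peak of Scd3 therefore also counts for Pkd2l1. The gene table merges 1 curated and 10 predicted transcripts of Pkd2l1 (9 coding and 1 noncoding) into a single span of 100.7 kb, and gives neither their separate extents nor exons, so it does not say which Pkd2l1 transcripts reach the peaks in Scd3 or whether a peak is exonic or intronic.

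The remaining desaturase genes lay on the side of the locus without peaks. Scd2, at 44293676 to 44306864, was 69.5 kb from the nearest peak of any list. Scd4, at 44333326 to 44346743, was 109 kb away, and Scd1, at 44394450 to 44407709, was 170 kb away. These 3 genes span 13.2 kb, 13.4 kb and 13.3 kb, and among protein-coding genes of 10 to 15 kb only 0.138% had a region shared by at least 2 lists, so genes of this size seldom had one. The 5 other annotated entries of the interval, Bloc1s2, the pseudogene Gm6951, the noncoding RNA genes Gm35183 and Gm41853 and the microRNA gene Mir5114, which lies in Scd2, had no peak either.

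The surroundings of the locus were empty of peaks. None of the 17 other protein-coding genes within 500 kb had a peak of any list, against 4.76% of all protein-coding genes with one. The nearest on either side are Bloc1s2, which encodes a subunit of the lysosome-related organelle complex BLOC-1 and ends 1.17 kb before Pkd2l1, and Wnt8b, a Wnt ligand gene that starts 85.8 kb after Scd1. The next peaks on the chromosome lay 1818 kb before the first peak of the locus and 869 kb after the last one, both in list 1. Shorter stretches without a peak of a given list were common. Of windows of 280 kb tiled over the chromosomes, 65.2%, 80.3% and 79.2% held no peak of lists 1, 2 and 3. Stretches as long as those beside the locus, without a peak of any list, were not counted.

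The start of Scd3, the desaturase gene that holds peaks, had no peak either, its nearest summit lying 16.3 kb downstream of it. That of Scd4 was 109 kb from a summit. The 250 bases before the annotated start of both genes are shown because a CCAAT Y-box would be looked for there. They are RefSeq sequence of GRCm38.p6 on the plus strand, at chr19:44203038-44203287 for Scd3 and chr19:44333076-44333325 for Scd4, and capitals mark runs of at least 9 bases that the pair share.
Scd3: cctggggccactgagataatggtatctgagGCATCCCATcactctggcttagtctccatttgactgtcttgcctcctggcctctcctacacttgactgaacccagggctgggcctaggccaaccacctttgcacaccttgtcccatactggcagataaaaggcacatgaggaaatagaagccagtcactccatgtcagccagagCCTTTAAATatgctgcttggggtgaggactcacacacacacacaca
Scd4: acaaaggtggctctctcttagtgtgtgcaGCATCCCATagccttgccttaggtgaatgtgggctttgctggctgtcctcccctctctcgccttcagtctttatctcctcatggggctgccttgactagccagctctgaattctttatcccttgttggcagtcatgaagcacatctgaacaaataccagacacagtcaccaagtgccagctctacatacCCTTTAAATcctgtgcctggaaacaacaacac
The shared runs are GCATCCCAT, far from the start, and CCTTTAAAT, nearer to it, and each covers 9 of the 18 shared letters. CCAAT occurs in neither window on either strand (searched as CCAAT and ATTGG), and 33.8% of the 32851 promoter windows of this length hold it. This says only that the letters are not in these windows. Of the 5 genes 2 had an entry in the promoter table.

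The 8 regions, numbered 1 to 8 along the chromosome, fell into a group in Pkd2l1 alone and a group in both genes. Regions 1 to 4, called the Pkd2l1 group, spanned 3.59 kb at 44166181 to 44169766, before the start of Scd3. Regions 5 to 8, called the Scd3 group, spanned 4.68 kb at 44219495 to 44224176, inside Scd3 and also inside the span of Pkd2l1. A stretch of 49.7 kb without peaks separated them, while the gaps between neighbouring regions of a group ran from 286 to 1835 bp. The map of the locus shows both groups, with Scd2, Scd4 and Scd1 beyond them.

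**Figure D1:**
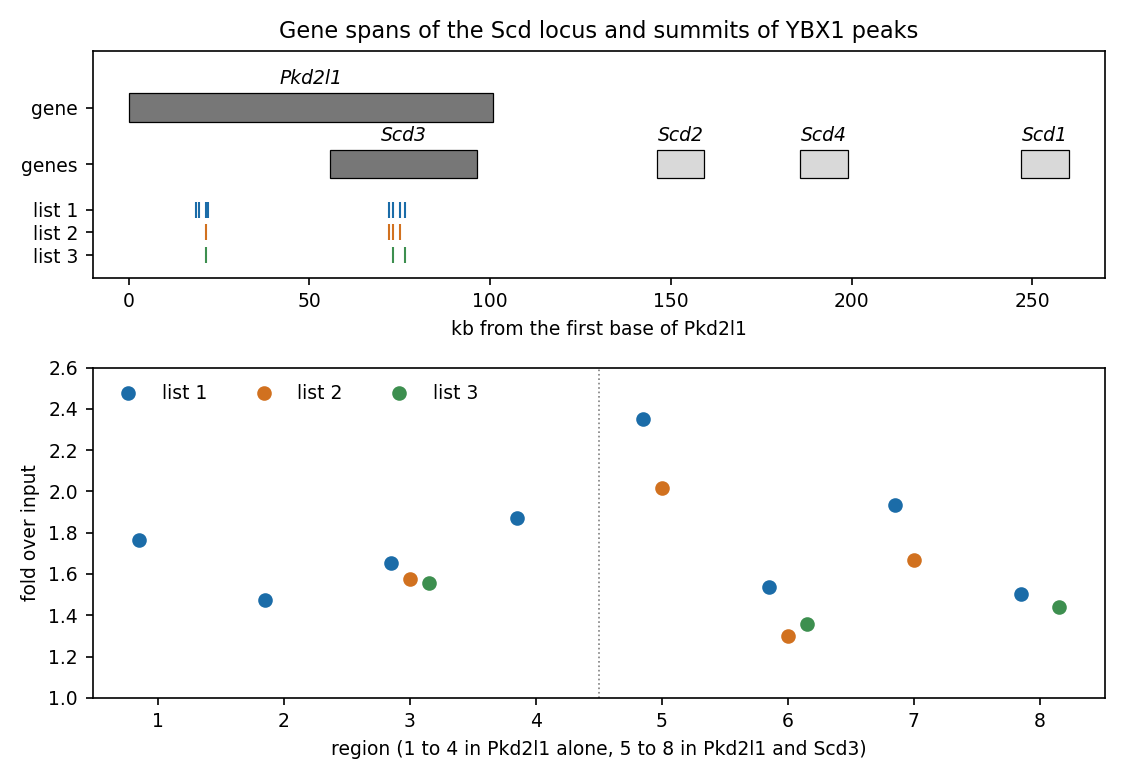
Upper panel: spans of the 5 genes (dark where they hold a peak) and summits of the peaks of lists 1 to 3, in kb from the first base of Pkd2l1. Lower panel: fold over input of each peak by region, on an axis that starts at 1, with a dotted line between the 2 groups; list 1 has a peak in all 8 regions, and only region 5 reaches a fold of 2.

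In the Pkd2l1 group, 1 of 4 regions was found in more than 1 list. The folds, here and below, are the authors' own from their deposited tables, the ratio of the tag pileup at the summit to the local input level, with 1 added to each. Region 3, at 44168941 to 44169164, had folds of 1.66, 1.58 and 1.56 in lists 1, 2 and 3, or 1.60 ± 0.0526 (SD, n = 3). Its summits lay within 61 bp of each other. Its folds stood at percentiles 36.3, 34.1 and 22.5 of their lists, so it was found again each time without being strong in any list. Regions 1, 2 and 4 were peaks of list 1 only, with folds of 1.76, 1.48 and 1.87, and lists without a peak give no value there.

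In the Scd3 group, each of the 4 regions was found in at least 2 lists. Region 5, at 44219495 to 44219806, had the highest folds of the locus, 2.35 in list 1 and 2.02 in list 2, and no peak in list 3. These folds stood at percentile 82.6 of list 1 and 73.0 of list 2, and the summits differed by 1 bp. Region 7, at 44222676 to 44223031, had folds of 1.93 and 1.67 in lists 1 and 2, with the summit on the same base, 44222796, and no peak in list 3. Region 8, at 44223897 to 44224176, had folds of 1.50 in list 1 and 1.44 in list 3, with summits 119 bp apart, and no peak in list 2.

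Region 6, at 44220597 to 44220840, was in all 3 lists, with folds of 1.54, 1.30 and 1.36, or 1.40 ± 0.124 (SD, n = 3). The folds of lists 2 and 3 were among the lowest of these lists, at percentiles 0.818 and 2.49. The peak of list 2 was also the closest to the calling threshold, with a −log10 q of 2.09 against a q threshold of 0.01, followed by region 8 in list 3 at 2.73 and region 6 in list 3 at 2.79. The highest −log10 q of the locus, 28.2, belonged to region 5 in list 1.

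By these counts 5 of the 8 regions were in at least 2 lists and 2 in all 3, against 37.4% and 15.8% of the regions of the series. Pkd2l1 had 5 shared regions, 2 of them in all 3 lists, and Scd3 had 4 and 1. A region of all 3 lists was found in the span of 1.25% of protein-coding genes and a shared region in 2.45%, in 5.27% of those of 80 to 120 kb, the size of Pkd2l1, and in 1.72% of those of 30 to 50 kb, the size of Scd3. Leaving out list 1 left 2 shared regions in Pkd2l1 and 1 in Scd3, and leaving out list 2 left 3 and 2. With peaks of −log10 q of at least 5, 3 regions remained shared in Pkd2l1 and 2 in Scd3.

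Few genes held as many regions. At least 4 shared regions lay in the span of 13 genes, or 0.0597%, and per Mb of span Scd3 was the densest of them with 98.2 and Pkd2l1 the third with 49.7. Between them came Rab3gap1, which encodes a subunit of a Rab GTPase-activating complex, with 53.2 over a span of 75.1 kb. The 4 shared regions of Scd3 are among the 5 of Pkd2l1, so the places of these genes are not independent. In windows of 280 kb, the length of the interval, tiled over the chromosomes, 21 of 9729 held at least 8 peaks of list 1, 31 at least 4 of list 2 and 142 at least 3 of list 3, while the median window held 0. At least 5 shared regions were found in 12 windows. The locus was selected on its number of peaks, so these places and counts restate that choice.

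The protein-coding genes outside the locus with the nearest numbers of peaks to Pkd2l1, by Euclidean distance over the 3 lists, included Nav3, Asic2 and Trak1. Nav3, a neuron navigator gene, had 7, 3 and 2 peaks, at a distance of 1.73. Asic2, an acid-sensing channel gene, and Trak1, an adaptor gene for mitochondrial transport, each had 6, 4 and 3 at a distance of 2. Their spans of 774 kb, 1088 kb and 177 kb were longer than the 101 kb of Pkd2l1, and their shared regions numbered 3.87, 3.68 and 28.2 per Mb. The numbers alone were alike, not the density.

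The local input level is part of every fold, and it was high at both groups. It can be recovered from pileup and fold, and is given here as a multiple of the genome-wide level expected from the kept tags. Over the 15 peaks it ran from 26.7 to 51.5 times that level, and 13 of 15 peaks lay above the median of their own list. The median over the peaks of the locus was 33.8, 36.4 and 40.6 times in lists 1, 2 and 3, or 36.9 ± 3.43 (SD, n = 3), against 28.2, 26.4 and 25.2 for whole lists, or 26.6 ± 1.49 (SD, n = 3). The locus medians rest on 8, 4 and 3 peaks of different regions, so their spread also depends on which peaks were called. In lists 1, 2 and 3, region 3 had 38.6, 40.2 and 40.6 times and region 6 had 44.8, 51.5 and 46.0 times. The lowest level was at region 5 in list 1, the peak with the highest fold, and the highest was at region 6 in list 2, the peak with the lowest fold.

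The pileups of 13 of 15 peaks were above the median of their list, 212, 191 and 184.5 tags in lists 1, 2 and 3, and those of region 8 were below it in both lists that held it. The folds of only 4 of 15 peaks were above the median of their list. Median folds at the locus were 1.71, 1.62 and 1.44 in lists 1, 2 and 3, against 1.78, 1.75 and 1.80 over whole lists. In list 1 the pileups of regions 1 to 4 were 276, 251, 259 and 220 extended tags, and those of regions 5 to 8 were 255, 279, 220 and 173. In list 2, regions 3, 5, 6 and 7 had 262, 257, 276 and 224. In list 3, regions 3, 6 and 8 had 255.6, 252.7 and 178.7. Region 6 was the highest of lists 1 and 2 and region 8 the lowest of lists 1 and 3, while the folds of region 6 were the lowest of the locus in lists 2 and 3.

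Since the caller kept 1 tag per position and strand and extended it to 160 bp, a pileup cannot exceed 320 tags, or 307.5 in list 3 after scaling. The peaks of the locus stood at 54.1% to 87.2% of this ceiling, against medians of 66.3%, 59.7% and 60.0% over whole lists. At the local input of region 6 the ceiling allowed a fold of at most 1.76, 1.50 and 1.65 in lists 1, 2 and 3, and at region 5 it allowed 2.95 in list 1 and 2.51 in list 2. Folds at the locus are therefore bounded by different limits, and the part of the ceiling in the order of the folds was not tested. The plot of pileup and local input shows both values for each peak.

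**Figure D2:**
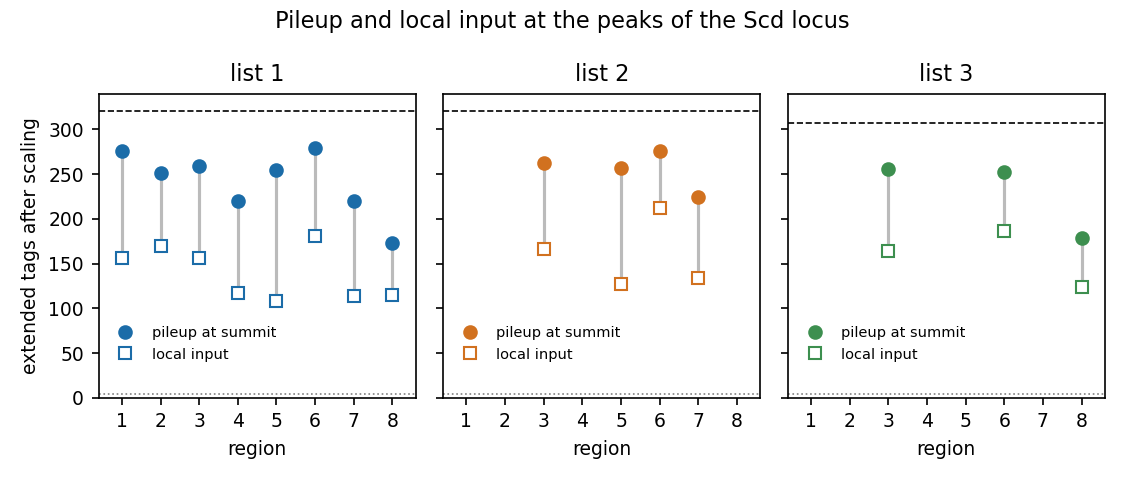
Pileup at the summit (filled circles) and recovered local input (open squares) in extended tags after scaling, by region, 1 panel for each list. The dashed line is the highest pileup possible and the dotted line the genome-wide level; every local input lies far above the latter, and region 6 has the highest local input in each list.

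The peaks of the locus recurred elsewhere in the genome with the same values. A peak was said to have an identical copy when another peak of its list had the same width, summit offset, pileup and fold. This held for 4 of 8 peaks of the locus in list 1, 2 of 4 in list 2 and 2 of 3 in list 3, against 22.2%, 23.3% and 18.5% of whole lists. These shares rest on 15 peaks that lie in 2 groups and were not tested.

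In the Pkd2l1 group, region 1 had 35 identical copies in list 1, on 16 chromosomes, each 443 bp wide with a pileup of 276 and a fold of 1.76. Region 2 had 34, on 19 chromosomes, 191 bp wide with a pileup of 251 and a fold of 1.48. Their sets ranked 4 and 5 by size among the 415 sets of identical peaks in list 1, of which the median set held 2 peaks and the largest 64. Regions 3 and 4 had none by this rule, which asks for equal width.

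In the Scd3 group, region 5 had 18 copies in list 1 and 17 in list 2, and region 6 had 8, 23 and 14 in lists 1, 2 and 3. Region 8 had 1 copy in list 3 and none in list 1, and region 7 had none by the same rule. The set of region 6 ranked 23 by size among 415 sets in list 1, 3 among 142 in list 2 and 4 among 163 in list 3. The copies of region 5 lay at the same places in both lists that held it, since each of the 17 in list 2 overlapped 1 of the 18 in list 1. Both lists placed copies in the same 5 protein-coding genes, so these are not separate counts. In list 1, protein-coding genes held 15 of the 35 copies of region 1, 15 of 34 of region 2, 5 of 18 of region 5 and 5 of 8 of region 6. In list 2 they held 5 of 17 of region 5 and 8 of 23 of region 6, and in list 3 they held 5 of 14 of region 6 and the 1 copy of region 8. Of all peaks, 23.4%, 24.7% and 24.8% in lists 1, 2 and 3 overlapped a protein-coding gene.

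**Figure D3:**
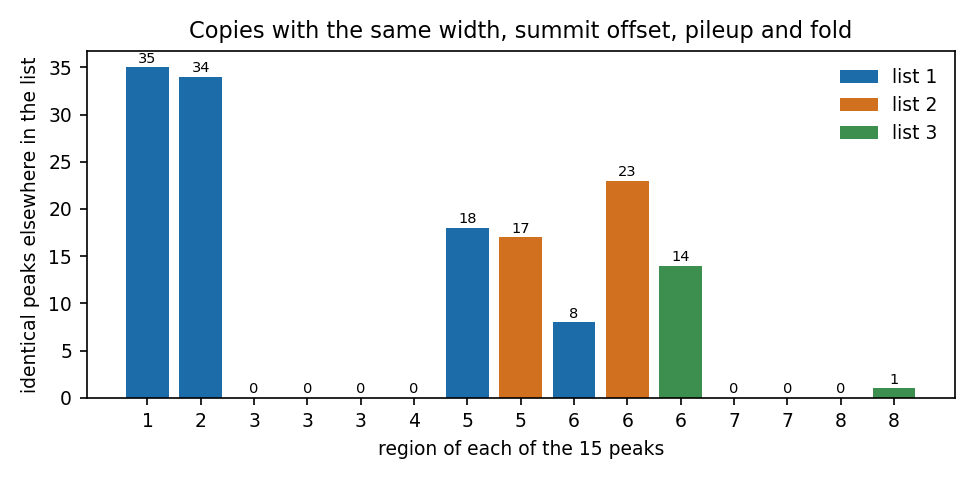
Number of identical peaks elsewhere in the same list for each of the 15 peaks of the locus, labelled by region and coloured by list; bars start at 0. Regions 1 and 2 have 35 and 34 copies in list 1, regions 5 and 6 have copies in each list that holds them, and regions 3, 4 and 7 have none.

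Some copies of neighbouring regions kept their distance, while others had no partner there. Region 2 starts 869 bp after region 1, and 15 of the 35 copies of region 1 had a copy of region 2 starting exactly 869 bp after them. Of these 15 pairs 8 lay in protein-coding genes, among them, named after the values were seen, Rala, Iars, Camkmt, Olfm3, Eps15, Stk32c and Sh3kbp1. In list 2, region 6 starts 1121 bp after region 5, and 8 of the 17 copies of region 5 had a copy of region 6 at that distance, 1 of them in a protein-coding gene, Limch1. List 1 held 18 copies of region 5 and 8 of region 6. There the copy of region 5 at 67199612 on chromosome 9 had a copy of region 6, at 67200714, at the distance of the locus. The other copies of region 5 in list 1 had none.

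The distances between summits recurred too, also for regions without identical copies. The 828 bp between regions 1 and 2 were found, within 3 bp, between 53 pairs of summits in list 1, the locus included. Among all distances from 400 to 5000 bp the median number was 4 pairs, the 95th percentile was 15 and the highest was also 53. The 1132 bp between regions 5 and 6 were found in 34 pairs and the 446 bp between regions 3 and 4 in 17, little above that percentile. The 1245 bp between regions 7 and 8 were found in 13 pairs, below it. The distances of 2755 bp between regions 1 and 3, with 5 pairs, and of 4478 bp between regions 5 and 8, with 4, were near the median.

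The whole Pkd2l1 group recurred at 1 site and the whole Scd3 group at 0, while 3 of 4 positions recurred at more. A site in Ankrd44, an ankyrin repeat gene on chromosome 1, had 4 summits of list 1, from 54890866 to 54894067, at the distances of regions 1 to 4, to the base. At 3 further sites the distances of regions 1, 2 and 4 recurred to the base: in Iars, a tRNA synthetase gene on chromosome 13, in Eps15, an endocytosis gene on chromosome 4, and at 3765295 to 3768496 on chromosome 16, outside protein-coding genes. These 3 sites also hold paired copies of regions 1 and 2, so they are not separate from the copies above. The distances of regions 5, 6 and 7 recurred within 2 bp at 9 sites, 3 of them in mirror order, and 2 of the 9, on chromosome 11, shared summits. Of the 9, those on chromosomes 2, 8 and 12 also hold paired copies of regions 5 and 6 in list 2. With exact distances 0 of these 9 remained, and with 10 bp allowed there were 11, while the Pkd2l1 group had 4 and 7. Of the 320 runs of 4 neighbouring peaks of list 1 within 6 kb, 15.6% had at least as many such sites as the Pkd2l1 group and 8.75% as many as the Scd3 group, and 53.8% had 0.

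The groups of the locus were also laid on each other at regions 4 and 7. These regions, 53.3 kb apart, had the same pileup in list 1, 220, with folds of 1.87 and 1.93 and local inputs of 29.0 and 28.0 times the genome-wide level. With their summits made to coincide, regions 1 and 5 fell 32 bp apart, at 3201 and 3233 bp before them, while regions 2 and 3 lay 2373 and 446 bp before them, region 6 2101 bp before and region 8 1245 bp after. At 7 sites elsewhere, summits of list 1 matched the common position, at least 1 further position of the Pkd2l1 group and at least 1 of the Scd3 group. On chromosome 2, at 158287333 to 158290566, the matched positions were those of regions 5, 6, 3 and 4, and the same 4 positions recurred on chromosome 5 at 47153883 to 47157116. Both are also among the 9 sites that repeat regions 5, 6 and 7. On chromosome 15, in Mrtfa, an actin-regulated coactivator gene, the positions of regions 2, 4 and 8 were combined. This alignment was chosen after the values were seen, and no such count was made for other groups of peaks, so the number 7 is a description. The plot of summit positions shows the groups with these sites between them.

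**Figure D4:**
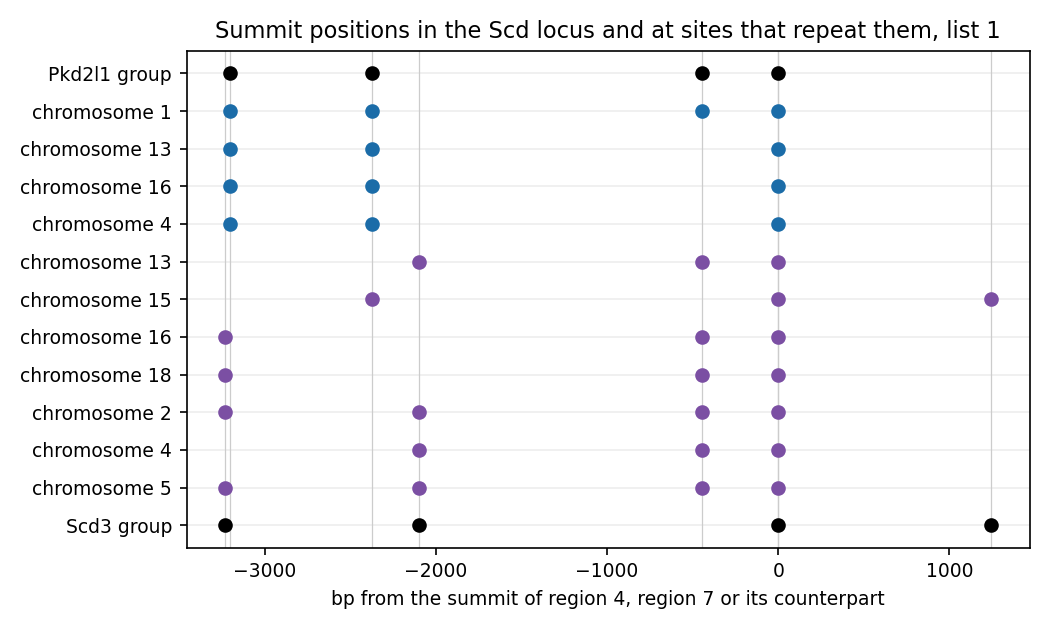
Summit positions of list 1 in bp from the summit of region 4, region 7 or its counterpart, for the Pkd2l1 group (top), the Scd3 group (bottom), the 4 sites that repeat at least 3 positions of the Pkd2l1 group (blue) and the 7 sites that combine positions of both groups (purple). Grey lines mark the positions of both groups; each site matches them within 3 bp.

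Whether regions 1 to 8 lie in repeated sequence, and how reads that fit several places were assigned, was not tested. No sequence of these regions or of their copies was used, and the aligner is not given in the sources used here. Without peaks that have an identical copy, 2 shared regions remained in the locus, regions 3 and 7, of which 1 lies in Scd3. In list 1 both lacked a copy by width, not by pileup or fold. Region 3's pileup of 259 and fold of 1.66 recurred at the matching summit in Ankrd44, with a width of 212 against 224 bp. Region 7's 220 and 1.93 recurred at the matching summits on chromosomes 2, 8, 12 and 13. The widths there were 448, 466, 498 and 450 bp, against 356 bp.

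The other genes of lipid synthesis held peaks about as often as genes at large. The 50 genes listed cover fatty acid synthesis, elongation, desaturation, their cofactors, glycerolipid and sterol ester synthesis, and SREBP and LXR regulators. Of them 0 had a shared region, against 2.45% of all protein-coding genes, and 2 had a peak of any list in their span, or 4%, against 4.76%. Cyb5r3, the reductase that feeds electrons to the desaturases through cytochrome b5, had a peak of list 2 with a fold of 4.88, a pileup of 24 and a local input of 1.00 times the genome-wide level. Lpin1, a phosphatidate phosphatase gene, had a peak of list 1 with a fold of 1.62, a pileup of 164 and a local input of 25.0 times. Neither had an identical copy. The peak in Cyb5r3 differed from those of the desaturase locus in all 3 values, while that in Lpin1 lay near their range.

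Of 10 genes of polycystin and mucolipin channels related to Pkd2l1, 2 had a shared region, both of them long relatives of polycystin-1, against 2.45% of all protein-coding genes and 5.27% of those of 80 to 120 kb. Pkd1l1, which acts in left-right patterning, had a peak in list 1 with a fold of 1.77 and in list 2 with 1.60, at local inputs of 18.4 and 18.8 times the genome-wide level. Pkd1l2 had a region with a fold of 1.57 in list 1 and 1.64 in list 3 and a second peak, of list 1 alone, with a fold of 2.40, at local inputs of 34.4, 32.2 and 28.8 times. None of these peaks had an identical copy. The spans of Pkd1l1 and Pkd1l2, 149 kb and 86.8 kb, are near or above that of Pkd2l1, and that of Pkd1l1 lies outside 80 to 120 kb. The 5.27% is therefore not matched in size to the list, and with 10 genes in it no more is read from the count.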

How the data were processed

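YBX1 ChIP-seq peaks of 3 immunoprecipitates were used, each set by the authors against its equally numbered input. Groups follow the titles in the labels. The submitters' processing notes name Trim Galore, MACS2 and the build GRCm38. Per the file headers, MACS 2.1.1.20160309 ran without a model, with an extension of 160 bp, a q threshold of 0.01, at most 1 tag kept at a position on each strand, and scaling of the larger library to the smaller. The deposited pileup is a signal in extended tags, the fold a ratio to local input, and its −log10 p and −log10 q come from the authors' caller. The deposited summit lists held the same summits and −log10 q for all 7053, 2628 and 2827 peaks.

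Local input was solved from pileup and fold. The −log10 p recomputed from it differed from the deposited value by at most 0.000432 at the locus. Peaks were merged at 1 bp of overlap, and a region in at least 2 lists was called shared. Genes came from the RefSeq table of GRCm38.p6, without 340 entries of all kinds with a start under 3 Mb (chromosome Y kept whole). Named genes were the 5 members, neighbours within 500 kb with a peak and the nearest on either side, list members with a peak and the 4 genes with peak numbers nearest to Pkd2l1, and values of some single genes are not reported here. The members and lists were chosen with earlier results of these data known. Scripts ran in Python 3.11.15 with pandas 2.3.3 and were first tested on simulated data. Sequences of the regions were not analysed here.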

Additional observations from a re-analysis of the deposited data

How the results depend on the processing

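Shared regions of the locus numbered 5, and Pkd2l1 and Scd3 held 5 and 4. With a −log10 q of at least 5 the locus had 3, Pkd2l1 3 and Scd3 2, and list 3 had 1 peak. Leaving out 1 list at a time gave 2 to 4 for the locus, 2 to 4 for Pkd2l1 and 1 to 3 for Scd3, the lowest without list 1. With 2 lists a region must be in both. With identical copies left out, which was chosen after seeing the data, the locus had 2, Pkd2l1 2 and Scd3 1. A 50% overlap of the shorter peak left 5 shared regions in the locus, as did other flanks of 0 and 50 kb, and midpoints or 1 kb of padding left 5 and 4 in the genes. The median folds of the locus, 1.71, 1.62 and 1.44 in lists 1, 2 and 3, moved by less than the SD between lists, 0.139. Scd1, Scd2 and Scd4 had 0 throughout. No paired analysis was possible because each list already sets an immunoprecipitate against its own input and no test was made. Lists hold no values where no peak was called, so a weaker signal at Scd1, Scd2 or Scd4 was not detectable.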
